A study of Rattus norvegicus with 6 samples.

Results

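The genes described here are 5 genes through which the pancreatic beta cell takes up glucose, sets its rate of glucose use and turns that rate into an electrical signal or stores insulin: Slc2a2, G6pc2, Slc30a8, Abcc8 and Kcnj11. They were chosen by symbol. Of the 5, 4 were among the 17321 genes counted in the deposited files, and all 4 entered the test. G6pc2, which encodes a glucose-6-phosphatase of islets that opposes glucose phosphorylation, was not among them and is not analysed here.

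Messenger RNA was sequenced from islets of fetal Sprague Dawley rats taken at gestational day 22. In the high glucose group the fetuses of the left uterine horn had received glucose at 4 mg/min for 48 h, beginning at gestational day 20. In the control group the fetuses came from the right horn, which the labels give as the paired control. Each group had 3 libraries. The sample titles were read as 1 library of either group from each dam, making 3 dam pairs. A library held hand-picked islets of 2 pooled pancreata after collagenase digestion. Both groups had recovered in culture for 24 h at 5 mM glucose when RNA was taken. The labels give no genetic change in either group. Horn side went with treatment in every pair, so side and infusion cannot be told apart. Titles and deposited alignment names give opposite horn letters in 6 of 6 libraries. Groups follow the treatment labels, and under the other naming each direction below would be reversed.

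Slc2a2 encodes GLUT2, the main glucose transporter of rodent beta cells. Glucose that enters is phosphorylated and metabolised, and the ratio of ATP to ADP rises. ATP-sensitive potassium (KATP) channels, built from the pore subunit Kir6.2 (Kcnj11) and the sulfonylurea receptor SUR1 (Abcc8), then close, the membrane depolarises, and calcium entry releases insulin. Slc30a8 encodes ZnT8, which carries zinc into insulin granules, where zinc and insulin crystallise. Fetal beta cells are known to respond weakly to glucose, and this response matures around and after birth.

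Total counts ran from 18077841 to 30993532 per library. The insulin genes Ins1 and Ins2, which define the beta cell, averaged 5934 ± 3127 and 5023 ± 3388 CPM (counts per 1000000 counts, with library sizes scaled by TMM, the trimmed mean of M-values) in high glucose, against 8017 ± 3243 and 7105 ± 2680 CPM in control (SD, n = 3 each). The summed beta cell list varied among the control libraries as well as between groups, at 5081 to 18913 CPM in high glucose and 11350 to 23048 CPM in control. The islets also carried connective tissue, with mesenchyme genes at 23396 to 31786 CPM in high glucose and 16621 to 38064 CPM in control. In such bulk samples, fewer beta cells and less RNA of a gene per beta cell cannot be told apart.

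In the rn6 genome Slc2a2 lies on the plus strand of chromosome 2, from 114413586 to 114445379, with 11 exons in the annotation used for counting. Its upstream sequence is shown because it is the gene whose level spanned the widest range here. The 250 bases before its start in the GRCr8 build, at chr2:113540120-113540369 on the plus strand, are given from RefSeq, 5′ to 3′. Capitals mark ATTA, which is TAAT (a core bound by homeodomain factors) read on the other strand, and TATAA, the core of a TATA box.
Slc2a2: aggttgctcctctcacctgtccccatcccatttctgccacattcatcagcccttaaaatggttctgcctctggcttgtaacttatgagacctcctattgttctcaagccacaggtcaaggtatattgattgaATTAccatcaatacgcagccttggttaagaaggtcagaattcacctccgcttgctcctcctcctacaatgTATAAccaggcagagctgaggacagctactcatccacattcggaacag
Both were chosen after the sequence was seen. The G6pc2 window held 4 matches to TAAT and 0 to TATAA. On either strand TAAT is present in 60.6% and TATAA in 26.2% of the 33469 promoters in the RefSeq table, each 300 bases long. Another 8 motifs were searched on both strands and had 0 matches in the 300-base windows of Slc2a2 and G6pc2. They were the homeodomain motif TAATTA, the E-box motif CATCTG, a further E-box CAGCTG, the motif TGCTGA, the motif GTTAAT, the forkhead motif TGTTTAC, the GC-box motif GGGCGG and the palindromic E-box CACGTG. The motif TAATTA contains TAAT, and the shares of all promoters that hold one of these 8 ranged from 3.78% for TGTTTAC to 33.1% for GGGCGG. Promoters of 2 of the 5 genes, Slc2a2 and G6pc2, were matched by symbol.

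None of the 4 genes passed the test between groups, and their differences pointed in opposite directions in different dams. All 4 were higher in high glucose in pair 1 and lower in pair 3. Of the 4, 0 passed (edgeR quasi-likelihood test with dam as a block, Benjamini-Hochberg adjusted p below 0.05 over 12276 genes) and 0 had an unadjusted p below 0.05. Over all genes 0.0163% passed, which is 2 genes, and 4.82% had an unadjusted p below 0.05. With DESeq2 also 0 of the 4 passed, against 0.825% of the genes it tested, and 5.12% of those had an unadjusted p below 0.05. The other fits also passed 0 of the 4, with 0.0163% of genes passing under RLE (relative log expression) factors, 0.00815% with voom and limma, 0.124% without the filter and 0.0% without the dam block. Leaving out pair 1 or pair 2 gave 0 of the 4, against 0.148% and 0.145% of genes. For 0 of the 4 did the libraries of the groups separate without overlap, against 3.31% of all genes. For 0 of the 4 did all 3 pairs point one way, against 23.0% of all genes. The pattern higher in pair 1 and lower in pair 3 occurred in 24.9% of all genes.

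Slc2a2, the glucose transporter gene, had 5494, 616 and 744 counts in the high glucose libraries of pairs 1, 2 and 3, against 2745, 256 and 4127 counts in the control libraries. Its level was 173, 30.1 and 23.2 CPM in high glucose and 79.5, 15.8 and 141 CPM in control. The high glucose library of pair 1 was the highest of the 6 and the control library of pair 2 the lowest, and the groups overlapped. The lowest count, 256, has an exact Poisson 95% interval of 226 to 289, which covers counting error only and is narrow beside a 10.9-fold span between libraries. The log2 difference was 1.12 in pair 1, 0.92 in pair 2 and -2.60 in pair 3. The fitted log2 difference was -0.07 (SE 1.22, 95% interval -4.46 to 4.32, edgeR adjusted p = 0.9996). That interval is wide enough to hold the differences of all 3 pairs. Without pair 3 the fitted difference was 1.03 (edgeR adjusted p = 0.0308), where 0.447% of the genes tested in those 4 libraries passed and 0.0569% passed as higher.

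Slc30a8, the zinc transporter gene of insulin granules, lies on the plus strand of chromosome 7, from 91832988 to 91865774, with 7 exons. It had 2376, 354 and 328 counts in high glucose (pairs 1, 2 and 3) and 1452, 275 and 2095 counts in control. Its level was 74.7, 17.3 and 10.2 CPM in high glucose and 42.1, 17.0 and 71.4 CPM in control. As for Slc2a2, the high glucose library of pair 1 was the highest, but the lowest was the high glucose library of pair 3. The log2 difference was 0.83, 0.02 and -2.80 in pairs 1, 2 and 3. The fitted log2 difference was -0.57 (SE 1.04, 95% interval -4.06 to 2.92, edgeR adjusted p = 0.9996). Without pair 3 it was 0.44 and did not pass (edgeR adjusted p = 0.999).

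The genes of the KATP channel lie next to each other on the minus strand of chromosome 1. Kcnj11, annotated as a single exon, runs from 102103094 to 102106127, and Abcc8, with 39 exons, from 102110708 to 102191287, so 4580 bases separate them. They varied far less between libraries than the other two genes.

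Abcc8, the sulfonylurea receptor gene, had 3161, 1045 and 1221 counts in high glucose and 2476, 901 and 1946 counts in control. Its level was 99.4, 51.0 and 38.0 CPM in high glucose and 71.7, 55.7 and 66.4 CPM in control. The 3 control libraries lay close together, inside the range of the high glucose libraries. The log2 difference was 0.47, -0.13 and -0.80 in pairs 1, 2 and 3, and the fitted difference -0.15 (SE 0.25, 95% interval -0.71 to 0.40, edgeR adjusted p = 0.9996).

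Kcnj11, the pore gene, had 1713, 608 and 814 counts in high glucose and 1344, 442 and 1217 counts in control. Its level was 53.9, 29.7 and 25.3 CPM in high glucose and 38.9, 27.3 and 41.5 CPM in control. Here too the control libraries lay inside the range of the high glucose libraries. The log2 difference was 0.47, 0.12 and -0.71 in pairs 1, 2 and 3, and the fitted difference -0.04 (SE 0.25, 95% interval -0.59 to 0.51, edgeR adjusted p = 0.9996). The fitted 95% intervals of the channel genes do not reach a 2-fold difference, whereas those of Slc2a2 and Slc30a8 do. The edgeR fit shares information on spread between genes, and each channel gene had pair differences of both signs. With 3 such pairs a 2-fold difference is not excluded.

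**Figure D1:**
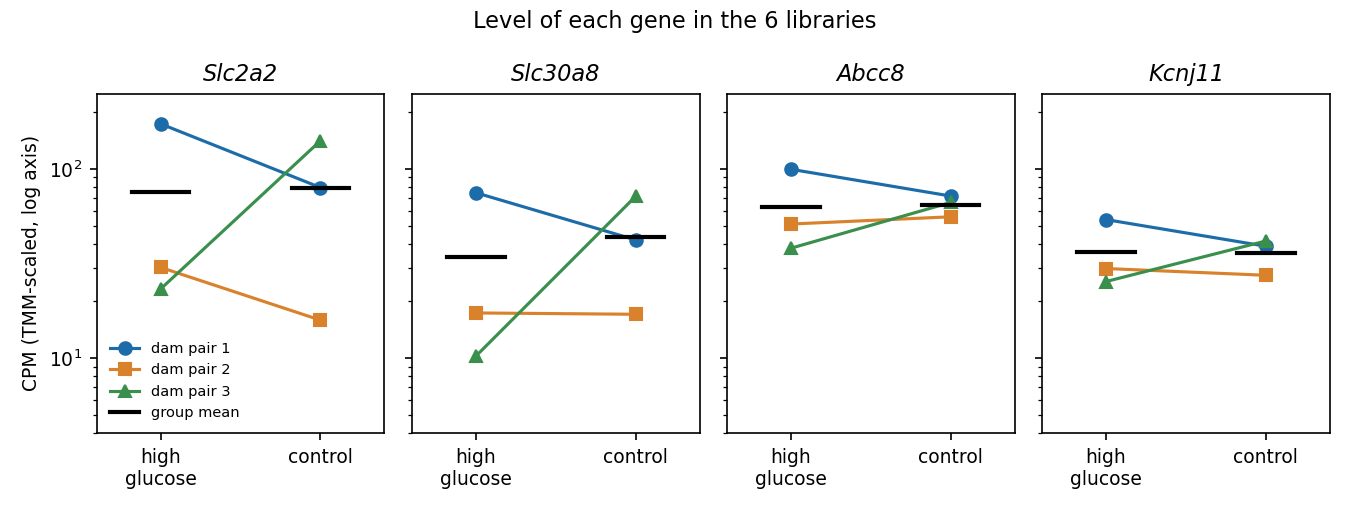
Level of the 4 genes in CPM (log axis) in the high glucose and control libraries, with a line joining the libraries of each dam pair and a bar at each group mean (n = 3). Slc2a2 spans 15.8 to 173 CPM and Kcnj11 25.3 to 53.9 CPM, and the lines of pairs 1 and 3 slope in opposite directions in each panel.

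**Figure D2:**
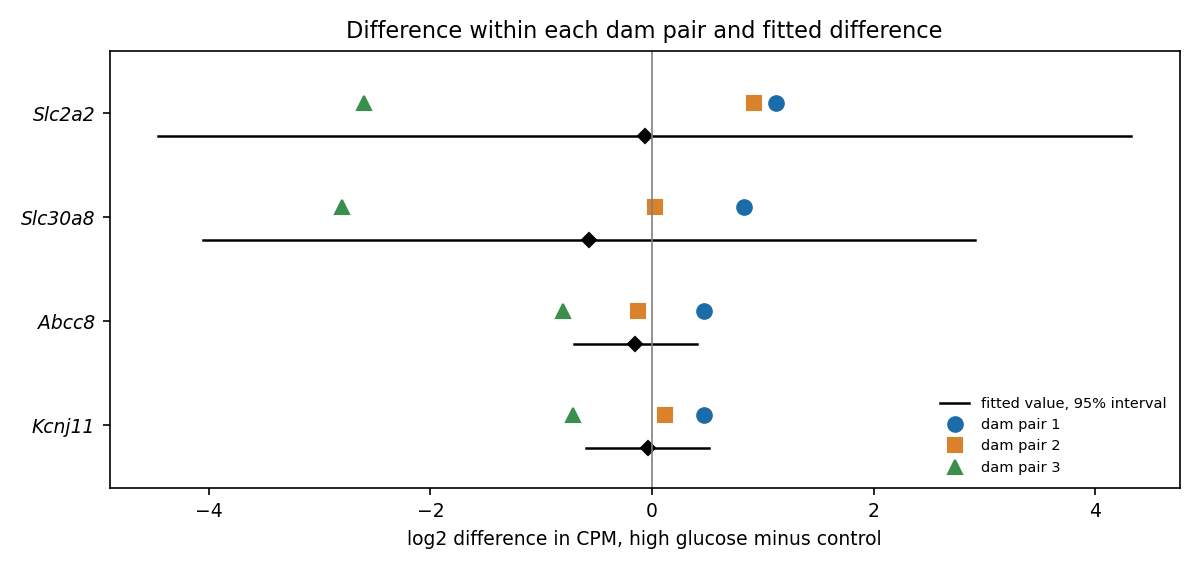
Log2 difference in CPM, high glucose minus control, within each dam pair (coloured points) and the fitted difference with its 95% interval (black). Pair 3 lies at -2.60 for Slc2a2 and -2.80 for Slc30a8, against -0.80 for Abcc8 and -0.71 for Kcnj11.

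The spread between libraries, and that of the pair differences, set these genes apart in 2 couples. The highest library exceeded the lowest 10.9-fold for Slc2a2 and 7.31-fold for Slc30a8, but 2.61-fold for Abcc8 and 2.12-fold for Kcnj11. The SD of the 3 pair differences (log2) was 2.09, 1.90, 0.64 and 0.60 in the same order, against a median of 0.37 over all genes tested. Among genes whose mean count was within 2-fold of their own, the SD of log2 CPM over the 6 libraries was larger than in 99.4% of 3722 genes for Slc2a2 and 98.3% of 4476 genes for Slc30a8. For Abcc8 it was larger than in 70.5% of 4183 genes and for Kcnj11 than in 56.9% of 4447 genes. These percentages describe the 6 libraries and include dam, treatment and tissue make-up together.

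Per unit of gene length, in TPM (transcripts per 1000000 transcripts), the mean levels of Slc2a2 and Slc30a8 stood above those of the channel genes. In the control library of pair 2, however, Slc2a2 had 8.27 TPM, below Abcc8 (15.1) and Kcnj11 (11.6). In the high glucose library of pair 3 Slc30a8 had 14.94 TPM, below Abcc8 (14.97) and Kcnj11 (15.6). In each other library both genes stood above the channel genes. Slc2a2 averaged 53.1 ± 62.9 TPM in high glucose and 51.7 ± 39.7 TPM in control, and Slc30a8 45.8 ± 51.0 and 54.4 ± 34.2 TPM (SD, n = 3 each). Abcc8 averaged 22.2 ± 13.3 TPM in high glucose and 21.5 ± 6.62 TPM in control, and Kcnj11 20.1 ± 10.3 and 18.8 ± 6.44 TPM. Over all 6 libraries the order by mean level was Slc2a2, Slc30a8, Abcc8, Kcnj11. In each group the gap between Slc30a8 and Abcc8 was smaller than the SD of Slc30a8 but larger than that of Abcc8. Other neighbours in this order differed by less than the SD of either gene in both groups. Mean levels ranked above 74.7%, 73.8%, 53.1% and 49.97% of the genes tested in that order. For Slc2a2, Abcc8 and Kcnj11 the mean TPM was slightly higher in high glucose, whereas the fitted difference had the opposite sign. In CPM, which is not divided by length, Abcc8 ranked above Slc30a8.

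Ratios between the genes within a library do not depend on library scaling. The channel subunits kept nearly one level per length: Abcc8 over Kcnj11 (counts per kilobase) was 1.18, 1.10 and 0.958 in high glucose and 1.18, 1.30 and 1.02 in control in pairs 1, 2 and 3. The mean log2 difference of this ratio was -0.11 ± 0.13 (SD of 3 pairs, two-sided exact sign-flip permutation p = 0.5). In the assembled channel the subunits are present in equal number, which is background and was not measured here.

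Slc2a2 and Slc30a8 also stayed near each other, with a ratio of 1.201, 0.904 and 1.18 in high glucose and 0.982, 0.483 and 1.02 in control. This ratio was higher in high glucose in 3 of 3 pairs, by log2 differences of 0.29, 0.90 and 0.20. The exact sign-flip permutation p was 0.25, the smallest that 3 pairs allow, and 1.0 after Benjamini-Hochberg adjustment over the 6 ratios compared, so it did not pass.

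The ratios across the couples moved much more. Slc2a2 over Abcc8 was 3.35, 1.14 and 1.18 in high glucose and 2.14, 0.548 and 4.09 in control. Slc30a8 over Kcnj11 was 3.29, 1.38 and 0.957 in high glucose and 2.56, 1.48 and 4.09 in control. The log2 difference of Slc2a2 over Abcc8 was 0.65, 1.05 and -1.80 in the 3 pairs, with a mean of -0.03 ± 1.54 (exact sign-flip permutation p = 1.0).

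**Figure D3:**
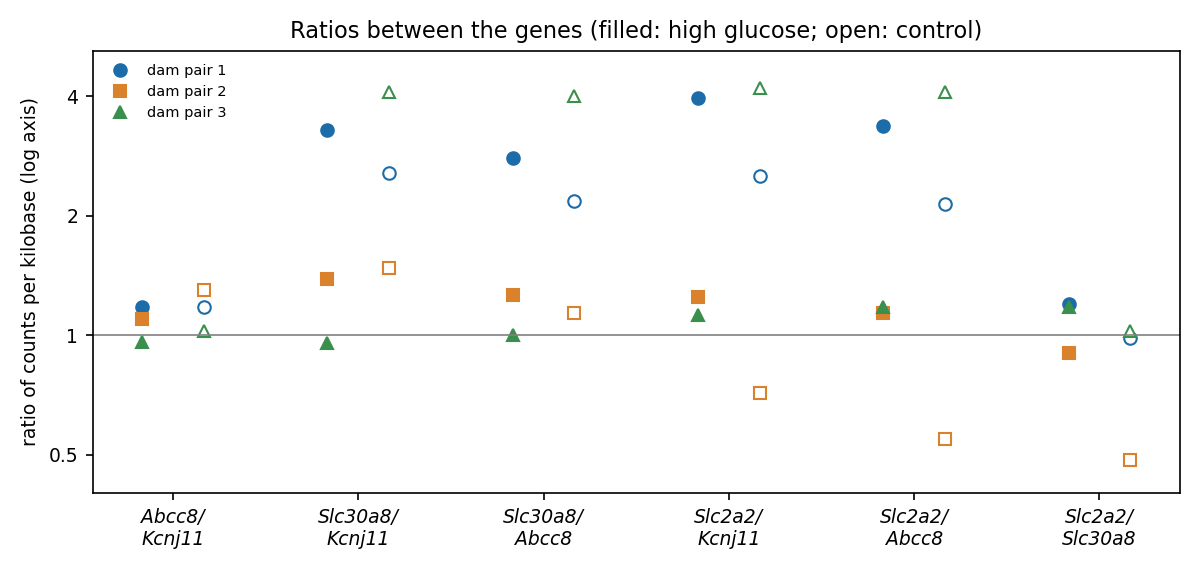
Ratio of counts per kilobase (log axis) for the 6 combinations of the 4 genes, by dam pair, with filled points for high glucose and open points for control. Abcc8/Kcnj11 stays between 0.958 and 1.30 in all 6 libraries, while Slc2a2/Abcc8 runs from 0.548 to 4.09.

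Set against other beta cell genes of the same library, the genes showed a further split in pair 3. The comparison divided each count by the summed count of 11 beta cell genes outside the set. Ins1 and Ins2 supplied 92.8% to 97.8% of that sum. Slc2a2 had 9.29, 2.78 and 4.68 counts per 1000 beta cell gene counts in high glucose and 7.11, 1.17 and 6.17 in control, for pairs 1, 2 and 3. Slc30a8 had 4.02, 1.60 and 2.07 in high glucose and 3.76, 1.26 and 3.13 in control. On this scale the pair 3 differences of these genes were -0.40 and -0.60 in log2.

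The channel genes had the opposite sign in pair 3 on this scale. Abcc8 had 5.34, 4.72 and 7.69 counts per 1000 in high glucose and 6.41, 4.12 and 2.91 in control. Kcnj11 had 2.90, 2.75 and 5.13 in high glucose and 3.48, 2.02 and 1.82 in control. Relative to beta cell genes both were lower in high glucose in pair 1 (log2 -0.26 each) and higher in pair 3 (1.401 and 1.49), the reverse of their CPM. Mean log2 differences of the ratio were 0.41 ± 0.82 for Slc2a2, -0.05 ± 0.49 for Slc30a8, 0.44 ± 0.86 for Abcc8 and 0.56 ± 0.88 for Kcnj11 (SD of 3 pairs). The two-sided exact sign-flip permutation p lay between 0.5 and 1.0, and was 1.0 for each after adjustment over the 4 genes. Relative to 7 beta cell transcription factor genes in place of the list, the mean was -0.03 for Slc2a2, -0.50 for Slc30a8, 0.0021 for Abcc8 and 0.11 for Kcnj11. The pair 3 differences with that denominator were -1.39, -1.59, 0.41 and 0.50 in the same order. Their signs were the same with either denominator, but their sizes depended on it.

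**Figure D4:**
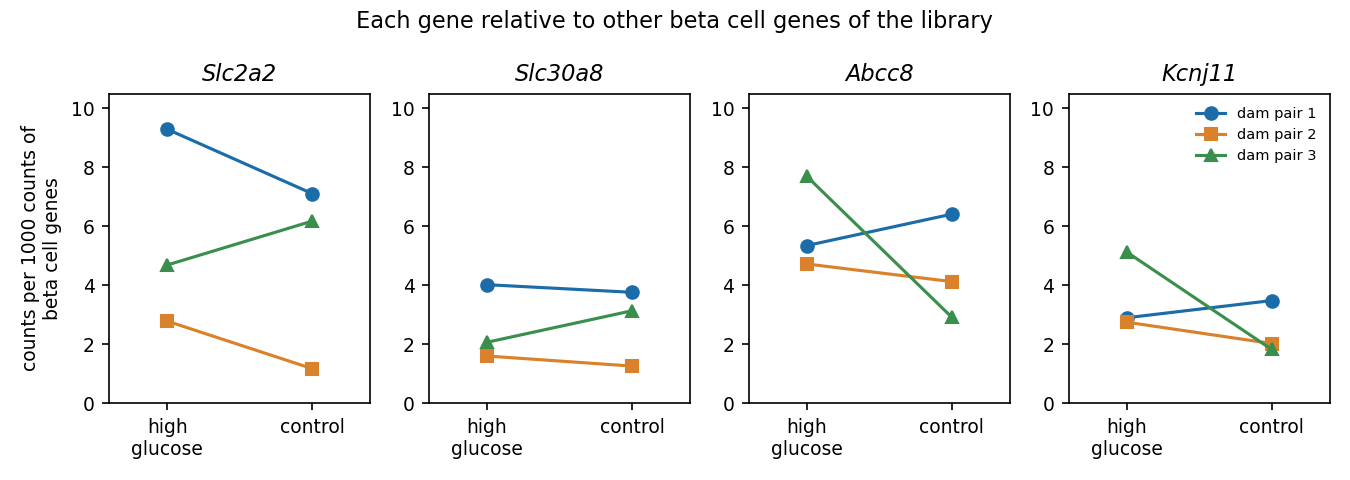
Counts of each gene per 1000 counts of 11 other beta cell genes in the same library, with a line for each dam pair from high glucose to control. In pair 3 Abcc8 stands at 7.69 in high glucose and 2.91 in control, whereas Slc2a2 stands at 4.68 and 6.17.

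Marker genes of other cells moved in the same libraries. The summed beta cell list differed by log2 0.74, -0.32 and -2.18 in pairs 1, 2 and 3, with 17 of its 18 counted genes tested, 0 at zero counts and 0 passing. The sum of alpha cell genes (11 counted, 1524 to 4531 CPM in high glucose and 2005 to 4844 CPM in control) differed by 0.38, 0.72 and -1.67. Most of it came from the glucagon gene Gcg, which averaged 2735 CPM in high glucose and 3112 CPM in control. The median log2 difference over single alpha cell genes was -0.0081, 0.21 and -0.61 in pairs 1, 2 and 3. Over single beta cell genes it was 0.77, 0.078 and -1.94, so in pair 2 its sign was opposite to that of the sum. Genes of delta, PP and epsilon cells (7 counted, 972 to 2029 and 1711 to 2613 CPM) differed by 0.22, -0.37 and -0.89. In pair 3, where all 4 genes were lower in high glucose, genes of digestive enzyme-producing acinar cells were higher by 4.14, after -0.48 and 0.64 in pairs 1 and 2 (22 counted, 241 to 2543 and 60.1 to 1628 CPM). Their part in the differences of the 4 genes was not tested.

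The other lists gave the following values. Mesenchyme genes (13 counted) differed by 0.49, -0.18 and -0.26. Smooth muscle and pericyte genes (10 counted, 1129 to 1462 CPM in high glucose and 1064 to 2648 CPM in control) differed by 0.09, -0.53 and -0.86. Endothelial genes (12 counted, Robo4 at zero, 468 to 1000 CPM and 1015 to 1208 CPM) differed by -0.04, -1.37 and -0.24, and immune genes (13 counted, 583 to 927 and 1052 to 1368 CPM) by -0.56, -0.42 and -0.96. Erythroid genes (9 counted, 87.5 to 634 and 403 to 1595 CPM) differed by -3.42, -1.29 and -2.21, and 1 of them passed. Duct genes (12 counted, 4892 to 10045 CPM and 2764 to 6050 CPM) were higher in each pair, by 0.84, 0.54 and 0.73, with 0 passing. Schwann and neural genes (8 counted, 180 to 238 and 125.96 to 294 CPM) differed by 0.75, -0.31 and -0.25.

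GLUT2 is also made by liver and gut cells. The hepatocyte list (15 counted, 231 to 1026 CPM in high glucose and 215 to 625 CPM in control) differed by 0.99, 0.06 and 0.72, with most of its sum from Tf (transferrin) and Serpina1. Tf ran from 77.7 to 887 CPM over the 6 libraries, Serpina1 from 46.2 to 150 CPM and the fibrinogen gene Fgb from 4.08 to 24.6 CPM. Albumin (Alb) reached at most 4.78 CPM, the fetal liver gene Afp 6.54 CPM and Pck1 9.25 CPM. The cytochrome genes Cyp2e1 and Cyp3a2, expressed mainly after birth in liver, had 0 counts in all 6 libraries. The lipoprotein genes Apoa1 and Apob, made by liver and gut, had 2, 10 and 4 and 11, 0 and 1 counts in high glucose. In control they had 1208, 3 and 2 and 956, 1 and 1 counts, so the control library of pair 1 stood apart. The part of such tissue in the Slc2a2 level of that library was not tested.

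**Figure D5:**
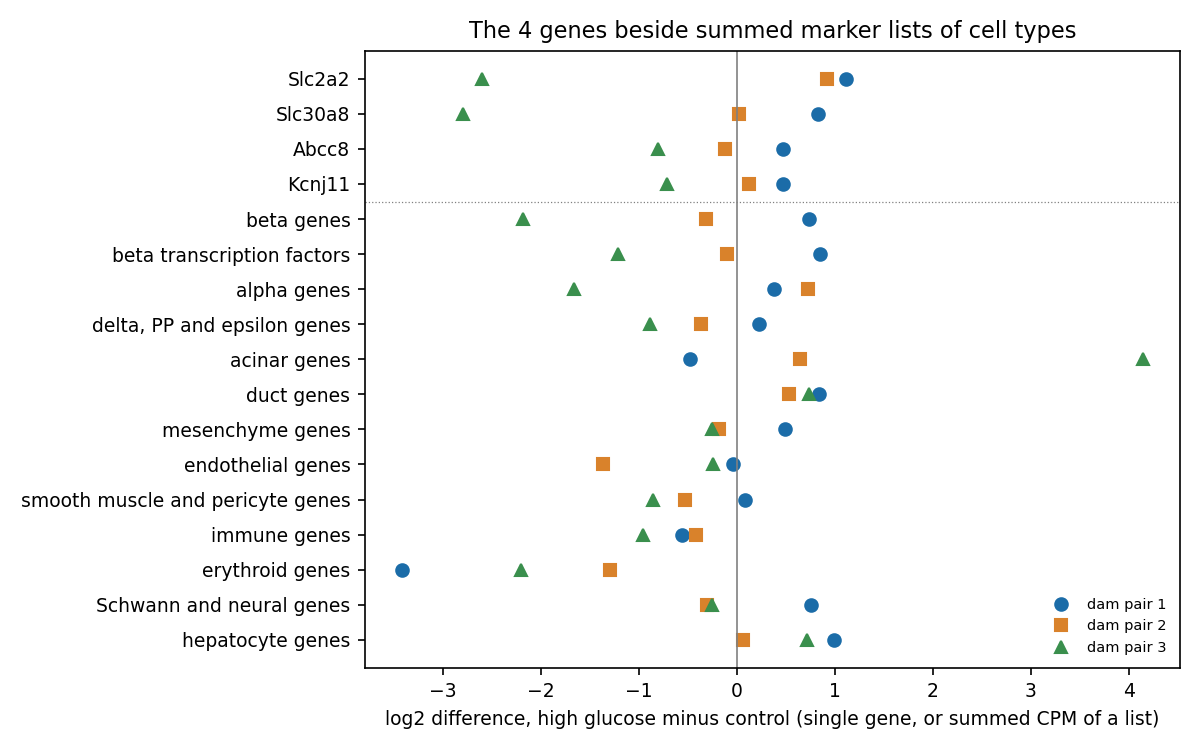
Log2 difference, high glucose minus control, in each dam pair for the 4 genes (above the dotted line) and for the summed CPM of marker lists of cell types (below it). In pair 3 the 4 genes lie between -0.71 and -2.80, the beta cell list at -2.18 and the acinar list at 4.14.

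Other genes of the pathway gave no calls either. Over 5 lists with 101 genes tested, 0 passed in either direction, and 3 had an unadjusted p below 0.05 in the edgeR test. Over all genes the same fit passed 0.0163%, and 4.82% had an unadjusted p below 0.05. Of genes for glucose uptake and phosphorylation, 15 were tested, with a median log2 difference of -0.17, against 0.0041 over all genes. The most abundant per length were Slc2a1, Hk1 and G6pc3. Slc2a1, the widely expressed transporter GLUT1, averaged 132 ± 31.4 CPM in high glucose and 129 ± 32.9 CPM in control. Unlike Slc2a2 it stayed within log2 differences of -0.14, 0.19 and 0.03 in the 3 pairs. Hk1, a high-affinity hexokinase, averaged 136 ± 21.5 and 160 ± 74.4 CPM, and G6pc3, the ubiquitous glucose-6-phosphatase, 53.5 ± 18.4 and 62.0 ± 19.1 CPM.

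Enzymes downstream of glucose phosphorylation had a median of -0.11 over 26 genes tested. Gapdh, Aldoa and Eno1, abundant glycolytic enzymes, had fitted log2 differences of -0.20, -0.15 and -0.11 (edgeR adjusted p = 0.9996 each). Pklr, the pyruvate kinase of liver and red cells, named after its values were seen, had an unadjusted p below 0.05 and a fitted difference of -1.13 (edgeR adjusted p = 0.553).

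Zinc transport genes and metallothioneins had a median of -0.03 over 23 genes tested. Slc39a7 and Slc39a1, importers that bring zinc into the cytosol, averaged 345 ± 73.6 and 318 ± 55.5 CPM in high glucose, against 332 ± 98.2 and 327 ± 71.1 CPM in control. The zinc-binding Mt1 averaged 55.4 ± 12.64 and 67.6 ± 28.5 CPM. These genes are expressed in many cell types, and the fitted differences of Slc39a7, Slc39a1 and Mt1 were 0.08, -0.03 and -0.21.

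Relatives of the KATP channel and other electrical genes had a median of 0.01 over 23 genes tested. Kcnj8, the pore subunit of the vascular KATP channel and a pericyte gene, averaged 38.8 ± 7.42 CPM in high glucose and 56.0 ± 9.23 CPM in control. It was lower in 3 of 3 pairs, with a fitted log2 difference of -0.54 that did not pass (edgeR adjusted p = 0.868). Abcc9, its sulfonylurea receptor partner, named after its values were seen, averaged 82.8 ± 48.2 and 92.3 ± 36.2 CPM. Kcnk16, a potassium channel of islet cells, averaged 86.6 ± 43.0 and 98.6 ± 26.0 CPM, and Cacnb3, a calcium channel subunit, 47.6 ± 7.64 and 48.4 ± 16.0 CPM.

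Islet transcription factor genes, which include regulators of Slc2a2 and Slc30a8, had a median of -0.20 over 14 genes tested and medians of 0.48, -0.33 and -0.71 in pairs 1, 2 and 3. Pdx1, which activates Slc2a2 and the insulin genes, averaged 48.4 ± 31.3 CPM in high glucose and 51.0 ± 10.3 CPM in control. Its log2 differences were 0.91, -0.37 and -1.28.

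Likeness of pattern was measured as the root mean square distance between profiles of log2 CPM over the 6 libraries, each centred on its own mean, among 11496 other genes with a mean count of at least 20. Between the 4 genes the distance was smallest for Abcc8 and Kcnj11 (0.15 log2 units), then for Slc2a2 and Slc30a8 (0.44), and 0.73 to 0.99 across the couples. Nearest to the mean profile of the 4 genes were Scg2 (0.13), Ptprn2 (0.14), Hepacam2 (0.15), Rims3 (0.16) and Syt9 (0.16), where the median gene lay at 0.87. Scg2, the granule protein secretogranin II, had 1524, 436 and 317 CPM in high glucose and 697, 331 and 1028 CPM in control. Ptprn2, a membrane protein of secretory granules, had 204, 75.2 and 46.0 CPM in high glucose and 129, 69.2 and 148 CPM in control. Nearest to single genes were Maob for Slc2a2 (0.18), Gpr6 for Slc30a8 (0.13), Abhd15 for Abcc8 (0.091) and Wfs1 for Kcnj11 (0.071). Wfs1, an endoplasmic reticulum membrane protein, had 36.3, 22.5 and 19.8 CPM in high glucose and 28.3, 19.1 and 29.5 CPM in control. With each profile centred within its dam pair instead, the 5 nearest to the mean profile were Slc25a53, Ptprn2, Rims3, Sftpa1 and Gpr84, so 2 of 5 were shared. Of the 4 nearest to single genes only Maob for Slc2a2 was shared, and Afm, Mpc1 and Cacna1b were nearest to Slc30a8, Abcc8 and Kcnj11. The marker lists above differed between libraries, and these distances describe the samples and say nothing of shared control.

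The nearest counted genes annotated at a single locus on either side gave no call, and in pair 3 none was as low as Slc2a2 or Slc30a8. Several are distant. Tnik and Eif5a2 lie 30749 and 892059 bases from Slc2a2, and Aard and Med30 239688 and 368822 bases from Slc30a8. Nomo1 lies 34223 bases from Kcnj11, and Ush1c 15812 bases from Abcc8. Tnik and Eif5a2, on either side of Slc2a2, had pair differences of 0.03, 0.29 and 1.23 and of 0.32, 0.61 and -0.36 in log2. Aard and Med30, on either side of Slc30a8, had 0.44, -0.10 and -0.38 and -0.16, -0.12 and 0.08. Nomo1, before Kcnj11, had -0.18, 0.27 and -0.26, and Ush1c, beyond Abcc8, had -1.74, 0.34 and -0.05. The edgeR adjusted p was 0.9996 for each.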

How the data were processed

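Fetal rat islet RNA was measured in 6 libraries. Each deposited file holds unnormalised gene counts. Per the file headers the authors counted read pairs using featureCounts 1.5.1 on the reverse strand, with minimum mapping quality 10, against UCSC refGene for rn6. Per the submitters' processing notes STAR 2.5 and edgeR 3.12.1 were used, and those notes name mm10 beside rn6. Strand-specific counting keeps antisense genes apart, and no other gene annotated at a single locus overlaps the 4 genes in that annotation. Genes placed at several loci were not searched for overlap.

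Group came from the treatment label and dam pair from the part that paired titles share, as the series design calls the horns paired. For pair 3 that shared part is only a number. Deviations of log2 CPM from group means correlated across genes at 0.474, 0.621 and 0.413 within the pairs. The test across genes used edgeR 4.0.16 under R 4.3.3 (TMM scaling, filterByExpr, robust quasi-likelihood F-test, dam block plus treatment). It covered 12276 genes, which hold 99.95% of counts. The procedure was tried on simulated data in which each pair effect was the same in both groups. That trial does not cover pair differences of opposite sign, as seen for the 4 genes. CPM uses TMM sizes, TPM the deposited gene lengths, and log2 CPM a prior count of 2. Differences are high glucose minus control. Ratios were tested by exact sign-flip permutation over 3 pairs, whose smallest p is 0.25. Alternatives were RLE factors, DESeq2 1.42.0, voom with limma 3.58.1, no filter, no block, left-out pairs and libraries, and other denominators.

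The genes and lists were chosen with earlier results of these data known. Beside the 4 genes, the text names list genes that passed, otherwise the 3 with the highest mean TPM, the 5 genes of most similar profile and the nearest to each gene. Others are said to be chosen after their values were seen. Values of some genes that this rule names are left out.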

Additional observations from a re-analysis of the deposited data

How the results depend on the processing

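The count of 0 among the 4 genes stayed at 0 with RLE factors, DESeq2, voom with limma, no filter and no replicate block, and was 0 to 1 when a dam pair was left out. The count over all genes, 2 with all pairs, was 106 with DESeq2, 18 with no filter, 1 with voom and limma, and 0 with no replicate block. It was 18 to 55 without 1 pair and 0 without any single library in the unblocked fit. Without pair 3 the fitted log2 differences turned positive, at 1.03 for Slc2a2, 0.44 for Slc30a8, 0.18 for Abcc8 and 0.30 for Kcnj11. Over the 3 left-out pairs they ran from -0.88 to 1.03, -1.41 to 0.44, -0.47 to 0.18 and -0.30 to 0.30. Without the replicate block Kcnj11 turned to 0.014, and in that fit some single omissions also gave positive values. Slc2a2 was 0.66 without the control library of pair 3, and 0.32 and 0.37 without the high glucose library of pair 2 or 3. Slc30a8 was 0.21 without the control library of pair 3 and 0.080 without the high glucose library of pair 3. Abcc8 was 0.030 without the control library of pair 1, and 0.089 and 0.22 without the high glucose library of pair 2 or 3. Kcnj11 was 0.068 and 0.13 without the control library of pair 1 or 3. It was 0.14 and 0.22 without the high glucose library of pair 2 or 3. Over all single omissions the values ran from -1.55 to 0.66 for Slc2a2, -1.65 to 0.21 for Slc30a8, -0.53 to 0.22 for Abcc8 and -0.37 to 0.22 for Kcnj11. The replicate block changed no call of the 4 genes.

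Relative to beta cell genes, Slc2a2 turned to -0.030 with transcription factors as the denominator. Leaving out a pair gave -0.0058 to 0.82 for Slc2a2, -0.25 to 0.22 for Slc30a8, -0.033 to 0.80 for Abcc8, 0.088 to 0.97 for Kcnj11, and -0.17 to -0.04 for the ratio of Abcc8 to Kcnj11. By CPM in place of TPM Slc30a8 moved to rank 3 and Abcc8 to rank 2, since CPM is not divided by length. Of the 5 genes of most similar profile, 5 were kept with a prior count of 0.5, but 2 with profiles centred within dam pair, a comparison chosen after seeing the data. The causes of the other changes were not tested. With 3 pairs, no ratio could pass its permutation test. Counts per gene and library were at least 256, so counting error did not limit the values of the 4 genes.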
